A study of Mus musculus with 16 samples.

Results

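The sterol and fatty acid synthesis genes form a set of 30 genes that encode the enzymes making cholesterol and long-chain fatty acids, together with the proteins that control them. They were chosen by gene symbol for their function, and all 30 of 30 symbols were present among the 28971 genes counted in whole mouse kidney. All 30 also passed the filter on low counts, out of 15615 genes that did. The kidneys came from mice that carried Pax8-rtTA and TRE->Cre together with floxed Hes1 (Hes1 f/f), called Hes1 cKO (conditional knockout), and from littermates labelled wild type control. In this system the Pax8 promoter drives the doxycycline-dependent activator rtTA in kidney tubule epithelium, which switches on Cre and deletes the floxed Hes1 gene, so recombination is not limited to the collecting duct. The sources used here do not say which of these alleles, if any, the controls carried. Mice of both groups drank doxycycline (1 mg/mL, with 5% sucrose) for 1 week from 3 weeks of age. The comparison used the 3 libraries named as mutant and the 4 named as wild type, here Hes1 cKO 1 to 3 and control 1 to 4, numbers that only name libraries.

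Cholesterol is built from acetyl-CoA through mevalonate, squalene and lanosterol, and fatty acids are built from the same precursor by a short set of enzymes. Both routes are switched on by the SREBP transcription factors, which are held in the endoplasmic reticulum by the sterol sensor SCAP and the INSIG proteins until sterol falls, and then bind sterol regulatory elements in promoters. mTORC1, the growth kinase that the series names as its link between Notch signaling and cell type composition, is known to promote SREBP activity. The question put to these genes was therefore whether their transcripts differ between Hes1 cKO and control kidneys.

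The promoters show what these genes have in common in sequence. RefSeq promoter windows (build GRCm38.p6, the sequence around the start of a gene) were found for 24 of the 30 genes. The next lines give the 150 bases before the RefSeq start used for the window, 5′ to 3′, for Hmgcs1, Cyp51, Insig1 and Fasn, the fatty acid synthase gene. Hmgcs1 was the only one of the 24 genes whose window matched the strict sterol element searched for. Cyp51 and Insig1 had the group differences with the smallest p-values of the set. For Cyp51 and Insig1 this start lies inside the GENCODE M21 gene limits given further on, so that part of the stretch is within the annotated gene. Capitals mark each match, on either strand, to the sterol regulatory element TCACNCCAC, the E-box CACGTG, the NF-Y box CCAAT or the GC box GGGCGG. Other forms of the sterol element were not searched for, so a stretch without capitals for it may still hold one.
Hmgcs1 (chr13:119690201-119690350, plus strand): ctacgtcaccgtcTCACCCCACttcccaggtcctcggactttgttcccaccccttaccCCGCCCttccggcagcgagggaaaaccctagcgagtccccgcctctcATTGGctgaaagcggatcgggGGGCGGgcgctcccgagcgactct
Cyp51 (chr5:4104698-4104847, minus strand): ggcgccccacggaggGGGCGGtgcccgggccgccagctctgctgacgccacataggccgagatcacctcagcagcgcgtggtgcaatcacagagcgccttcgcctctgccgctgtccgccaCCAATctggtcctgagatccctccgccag
Insig1 (chr5:28071262-28071411, plus strand): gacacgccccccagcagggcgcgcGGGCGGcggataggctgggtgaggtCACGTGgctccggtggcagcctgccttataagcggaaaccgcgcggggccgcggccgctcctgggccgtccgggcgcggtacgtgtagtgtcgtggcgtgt
Fasn (chr11:120824548-120824697, minus strand): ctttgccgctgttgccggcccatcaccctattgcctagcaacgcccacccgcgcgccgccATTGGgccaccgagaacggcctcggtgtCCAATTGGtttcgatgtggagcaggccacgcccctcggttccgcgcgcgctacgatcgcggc

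Of the 24 genes with a window, 20 (83.3%) held a CCAAT box and 20 (83.3%) a GC box, against 41.1% and 38.2% of 27025 genes with a promoter window. An E-box was in 5 (20.8%, against 8.09% of all genes), namely Hsd17b7, Sc5d, Dhcr7, Insig1 and Scap. The strict sterol element was in 1 (4.17%, against 1.44%), which is Hmgcs1, where it starts 137 bases before the start of the gene. In Fasn the final 2 CCAAT matches share letters. The 27025 genes were not limited to the 15615 tested in these kidneys, whereas all 30 genes of the set were tested. These matches describe letters only.

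Total counts were 16973931 to 20420422 per library. Hes1, the targeted gene, was at 17.2 to 19.8 CPM in Hes1 cKO and 42.8 to 67.6 CPM in control, where CPM is the usual depth-scaled count, here with TMM-scaled library sizes. The libraries also differed in ways that the group names do not give. Xist, which marks kidneys with an inactive X chromosome, was at 333 to 367 CPM in Hes1 cKO 3 and in control 3 and 4, whereas the other 4 libraries did not exceed 0.371 CPM. All 9 adrenal cortex markers checked were at their highest levels in Hes1 cKO 3 and control 1: Star, which delivers cholesterol to steroid synthesis, was at 331 and 285 CPM there, at 73.5 CPM in control 2, at 17.4 CPM in Hes1 cKO 1 and at 2.42 to 3.99 CPM in the other 3 libraries. The steroid hydroxylase gene Cyp11b1, a defining adrenal marker, was at 0 in control 3 and 4 and at 0.0495 CPM in Hes1 cKO 2. Adipocyte markers were present in every library, with Adipoq at 21.5 to 28.5 CPM in Hes1 cKO and 17.1 to 25.0 CPM in control. The brown adipocyte genes Ucp1 and Cidea were at 13.2 to 27.5 and 23.7 to 36.3 CPM over the 7 libraries. Kidney identity was clear from the proximal tubule gene Slc34a1, at 3739 to 5454 CPM over the 7 libraries.

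**Figure D1:**
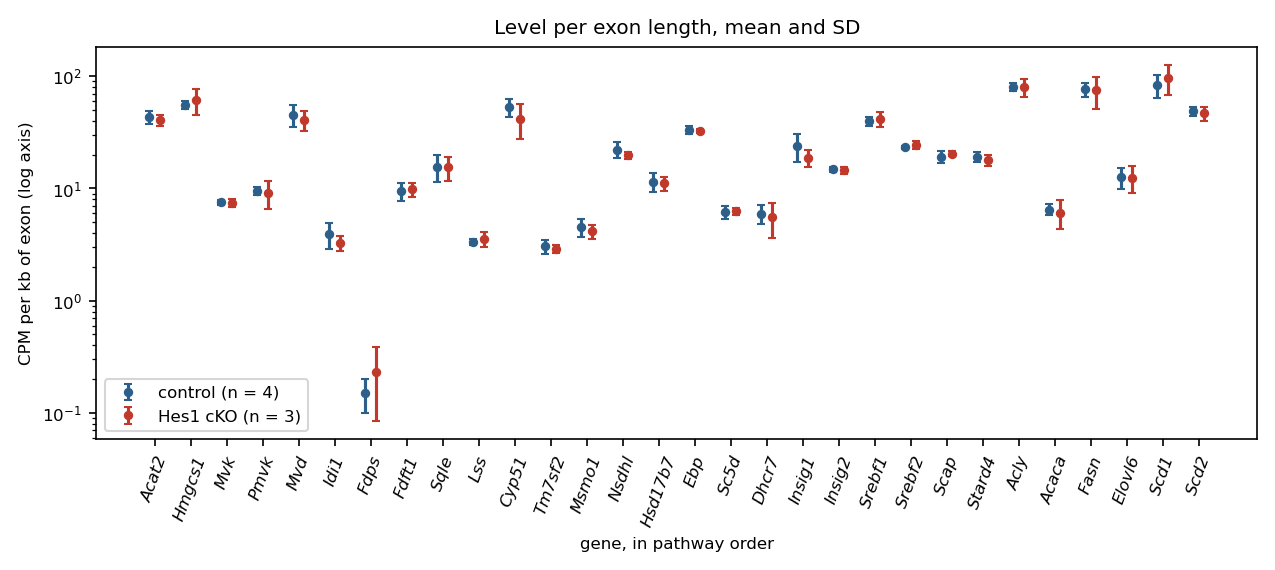
Level of each gene in CPM per kilobase of exon (log axis), in pathway order, as the mean with SD of 4 control (blue) and 3 Hes1 cKO (red) libraries. Scd1, Acly and Fasn are at the top, Fdps lies far below every other gene, and both groups sit close together at each gene.

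Per exon length, 3 of the 6 fatty acid genes had the highest levels of the set. The part of fat tissue RNA in these levels was not tested. In control kidneys Scd1, the main stearoyl-CoA desaturase, was at 83.7 CPM per kb of exon, Acly, which makes cytosolic acetyl-CoA from citrate, at 80.6, and Fasn, which assembles palmitate, at 76.6 CPM per kb. The other fatty acid genes were Scd2 at 48.6, the elongase gene Elovl6 at 12.5 and the carboxylase gene Acaca at 6.48 CPM per kb. Apart from Fdps, the sterol enzymes ran on that scale from 55.9 CPM per kb for Hmgcs1, which makes HMG-CoA, and 53.3 for Cyp51, which removes a methyl group from lanosterol, down to 3.05 for the sterol reductase gene Tm7sf2. Fdps, the farnesyl diphosphate synthase gene, was lowest at 0.151 CPM per kb, with 6 to 29 reads in a library. Its value is uncertain: in GENCODE M21, 26.7% of its exon bases overlap the gene Gm43738, and 21.4% of the 100-base stretches of its transcripts also occur in Gm43738 or in the pseudogenes Gm3571 and Gm5873. Such shared stretches also made up 28.9% of Acat2 (with Acat3 and Tcp1) and 23.7% of Acaca (with Gm5182, Gm42553 and Mettl6). They made up 21.9% of Idi1 and 18.3% of Fdft1. Counting could therefore split some reads of these genes as well. The reads were 150 bp pairs, and a pair that holds a shared 100-base stretch may still be unique. Exons of Fdft1 (with Ctsb, 18.3% of bases), Scap (13.2%), Hmgcs1 (12.1%) and Idi1 (9.22%) also overlap a gene on the opposite strand, and reads of such partners cannot be told apart without strand, which the sources used here do not describe for the counting. Scd1 shared 2.58% with Scd2, Scd3, Scd4 and AC123853.3, and Scd2 shared 0.879%. Exons of Tm7sf2 overlap Vps51 on the same strand over 12.1% of bases.

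Between Hes1 cKO and control, no gene of the set passed the test. The quasi-likelihood test of edgeR, adjusted by Benjamini-Hochberg over all tested genes, called 0 of the 30 (background 0.339% of 15615 genes), with adjusted p-values from 0.937 to 0.999. At an unadjusted p under 0.05 there were 0 of 30 (background 5.95%), and limma-voom and DESeq2 each called 0 and also had 0 at that unadjusted level. None of the 30 separated the groups without overlap (background 7.01%). The log2 fold change of Hes1 cKO over control was above 0 for 9 genes and below 0 for 21 (above 0 in 48.4% of all tested genes). The median was -0.03 in the set and -0.0064 over all tested genes.

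The standard error of a log2 fold change had a median of 0.16 over the set. The 95% interval of the log2 fold change lay between -1 and 1 for 29 of 30 genes (background 83.1%), the exception being Fdps, and between -0.5 and 0.5 for 22 (background 55%). For scale, the log2 fold change of Hes1 was -1.61 (95% interval -1.97 to -1.26), and the lowest bound of any of the 30 intervals was -0.83. In whole-kidney RNA, fewer cells of a type and less RNA per cell cannot be told apart. The intervals refer to the whole kidney, and a change confined to some of its cells was not tested. The labels speak of littermates but tie no column to an animal, so the p-values measure only the spread between these 7 libraries.

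**Figure D2:**
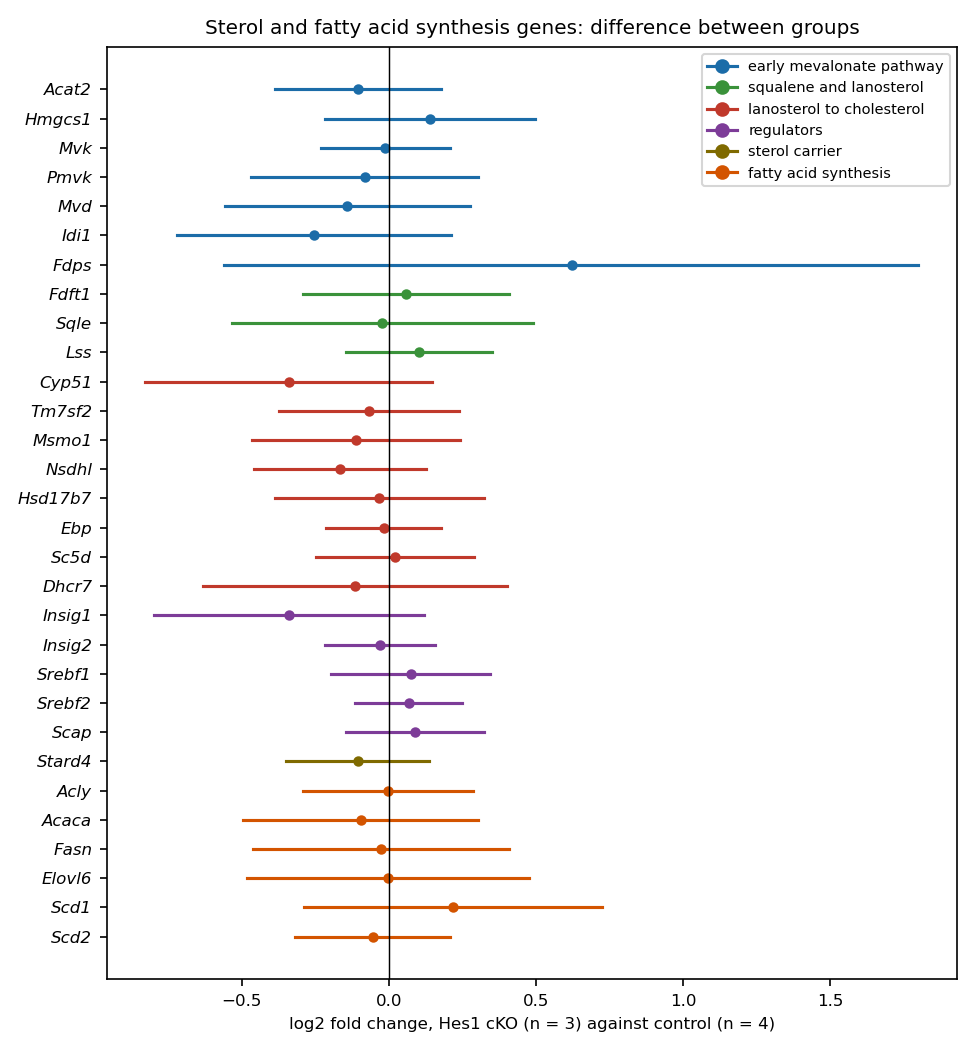
Log2 fold change of each gene in Hes1 cKO (n = 3) against control (n = 4), coloured by role. Bars are approximate 95% intervals computed from the edgeR F statistic. Every interval crosses 0, and Fdps has the widest, from -0.56 to 1.80.

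The early mevalonate enzymes turn acetyl-CoA into farnesyl diphosphate. Of the 7 genes, 2 had a log2 fold change above 0 and 5 below 0. Hmgcs1 (ENSMUSG00000093930) was at 218, 363 and 266.5 CPM in Hes1 cKO 1, 2 and 3 and at 233, 245, 282.5 and 267 CPM in control 1, 2, 3 and 4. Hes1 cKO 2 was highest and Hes1 cKO 1 lowest of all, so that the Hes1 cKO libraries enclosed the control range. The means were 282 ± 74.1 (SD, n = 3) and 257 ± 22.3 CPM (SD, n = 4), a 1.10-fold level with a 95% interval of 0.86 to 1.41 (edgeR adjusted p 0.974). Idi1, the isomerase that makes dimethylallyl diphosphate, had 13.3, 10.1 and 10.9 CPM in the Hes1 cKO libraries, against 16.7, 16.8, 10.1 and 11.0 CPM in the control libraries. Control 1 and 2 lay above all other libraries, and control 3 and 4 within the Hes1 cKO range (log2 fold change -0.25, SE 0.21, edgeR adjusted p 0.959). Mvd, which forms isopentenyl diphosphate, had its lowest and highest values in controls, 63.5 CPM in control 4 and 109 CPM in control 1, with a log2 fold change of -0.14 (SE 0.19).

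The remaining 4 early genes were Mvk, Pmvk, Acat2 and Fdps. Mvk, mevalonate kinase, was steady at 18.3 to 21.3 CPM in all 7 libraries (log2 fold change -0.01, SE 0.10). The phosphomevalonate kinase gene Pmvk reached 20.5 CPM in Hes1 cKO 1 and was at 12.9 and 13.1 CPM in the other Hes1 cKO libraries, on both sides of the control range of 14.96 to 18.2 CPM (log2 fold change -0.08, SE 0.17). Acat2, the cytosolic thiolase, had means of 103 ± 11.8 CPM (SD, n = 3) and 111 ± 14.7 CPM (SD, n = 4), with a log2 fold change of -0.11 (SE 0.13). Its near copy Acat3 had 16.9, 27.2 and 31.6 CPM in the Hes1 cKO libraries, against 19.96, 32.9, 24.9 and 29.4 CPM in the control libraries (log2 fold change -0.09, SE 0.22), so it was lowest in the first library of each group. Fdps had the largest log2 fold change of the set, 0.62, with an SE of 0.53 (edgeR adjusted p 0.959). It ran from 0.13 (without Hes1 cKO 1) to 1.06 (without Hes1 cKO 2) when 1 library was left out, and was 0.37 with limma-voom and -0.08 with the adipocyte markers in the fit. The reads behind it numbered 29, 6 and 19 in the Hes1 cKO libraries, against 14, 13, 13 and 6 in the control libraries. So few reads limit what this gene can show.

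Squalene and lanosterol are made by Fdft1, Sqle and Lss in turn. Sqle (ENSMUSG00000022351), the squalene epoxidase gene, was at 106, 85.7 and 65.2 CPM in Hes1 cKO 1, 2 and 3, and at 98.7, 112, 80.2 and 57.2 CPM in control 1, 2, 3 and 4. The groups overlapped, with means of 85.7 ± 20.4 (SD, n = 3) and 87.1 ± 23.8 CPM (SD, n = 4), a 0.984-fold level (95% interval 0.691 to 1.40, edgeR adjusted p 0.996). Within each group the libraries with high Xist were the lowest. Fdft1, which joins farnesyl units into squalene, ranged from 31.7 CPM (control 4) to 48.4 CPM (Hes1 cKO 1), with a log2 fold change of 0.06 (SE 0.16). Lss, which closes the sterol rings, had 45.1, 35.65 and 34.8 CPM in the Hes1 cKO libraries, against 36.9, 38.2, 33.8 and 34.55 CPM in the control libraries. Hes1 cKO 1 stood above the rest, and the other Hes1 cKO libraries lay within the control range. Its log2 fold change, 0.10 (SE 0.11), was the largest in absolute size of these 3 genes.

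The step from lanosterol to cholesterol is made by 8 genes of the set, of which 7 had a log2 fold change below 0. Cyp51 (ENSMUSG00000001467, chromosome 5, 4081145 to 4104746, GRCm38) was at 160, 139.6 and 257 CPM in Hes1 cKO 1, 2 and 3 and at 280.0, 189, 264 and 208 CPM in control 1, 2, 3 and 4. Hes1 cKO 1 and 2 were the lowest of all libraries, while Hes1 cKO 3 lay among the controls. The means were 186 ± 62.7 (SD, n = 3) and 235 ± 43.8 CPM (SD, n = 4), a 0.789-fold level with a 95% interval of 0.563 to 1.11 (edgeR adjusted p 0.938, exact two-sided permutation p 0.257). Cyp51 had the lowest log2 fold change of the set, -0.34 (SE 0.22). When 1 library was left out, it ran from -0.65 (without Hes1 cKO 3, edgeR adjusted p 0.424) to -0.17 (without Hes1 cKO 2), and it was -0.25 without control 1 or Hes1 cKO 1.

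Dhcr7, whose enzyme makes cholesterol in the final step, had 32.6, 20.8 and 42.9 CPM in the Hes1 cKO libraries, against 43.7, 33.7, 34.1 and 27.7 CPM in the control libraries. Hes1 cKO 2 was the lowest library, and Hes1 cKO 3 and control 1, the libraries with most adrenal RNA, were the highest (log2 fold change -0.12, SE 0.23). Msmo1 and Nsdhl, which act together in removing methyl groups, had log2 fold changes of -0.11 (SE 0.16) and -0.17 (SE 0.13), and Hsd17b7, the ketosteroid reductase of the same complex, one of -0.03 (SE 0.16). The isomerase gene Ebp was steady at 68.3 to 84.1 CPM (log2 fold change -0.02, SE 0.09). Sc5d, which introduces a ring double bond, was at 28.2 to 32.6 CPM in Hes1 cKO and 25.2 to 34.8 CPM in control (log2 fold change 0.02, SE 0.12). Tm7sf2 was at 11.7 to 13.9 and 12.1 to 16.2 CPM (log2 fold change -0.07, SE 0.14). Nsdhl and Ebp are the X-linked genes of the set. Nsdhl was at 72.0 and 73.2 CPM in control 1 and 2 and at 51.8 to 60.1 CPM in the other 5 libraries.

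**Figure D3:**
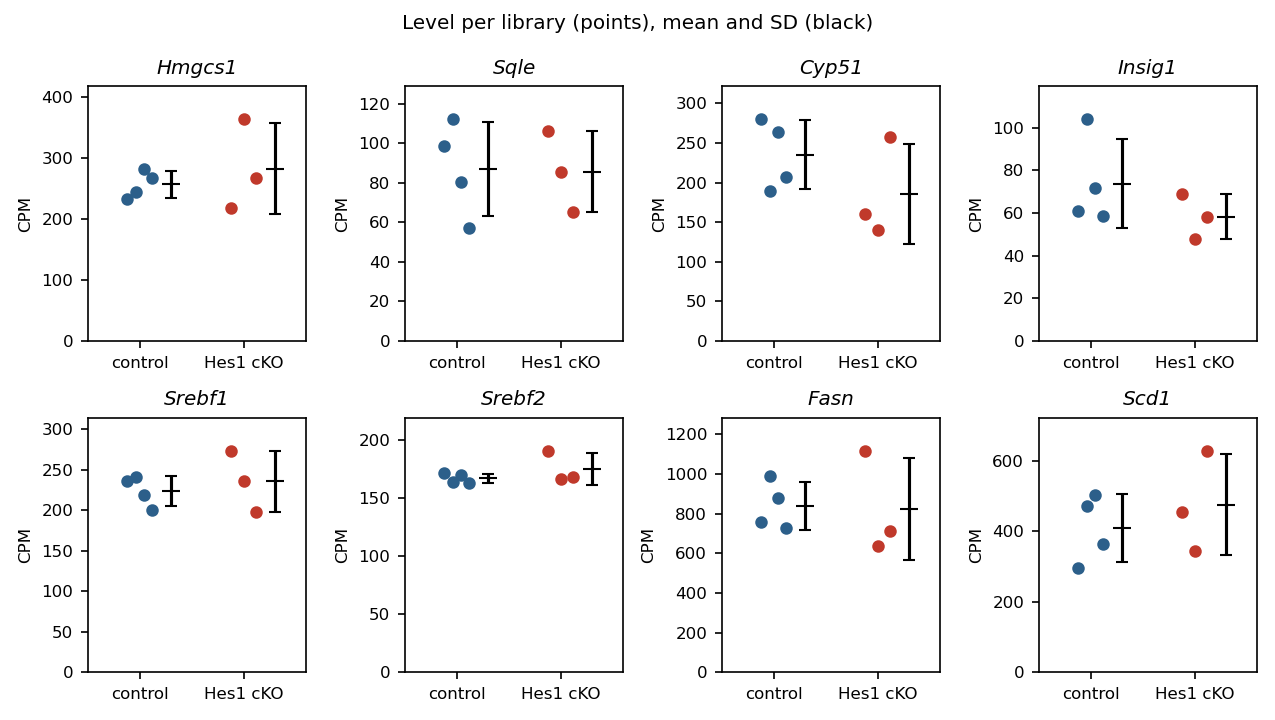
CPM of 8 genes in each of 4 control (blue) and 3 Hes1 cKO (red) libraries, with mean and SD in black; axes start at 0. The groups overlap in every panel, and Hes1 cKO 2 stands above the other libraries for Hmgcs1 at 363 CPM.

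Of the 5 regulators, 3 had a log2 fold change above 0 and 2 below 0. Srebf2, which encodes the SREBP that favors sterol genes, was at 191, 166 and 168 CPM in Hes1 cKO 1, 2 and 3 and at 171, 164, 169.6 and 163 CPM in control 1, 2, 3 and 4. Its control libraries varied by 2.40% (coefficient of variation), at percentile 1.2 of the tested genes, and Hes1 cKO 1 lay above the other 6 libraries. The log2 fold change was 0.07 (SE 0.08, 95% interval -0.11 to 0.25, edgeR adjusted p 0.974). Srebf1, which encodes the SREBP forms that favor fatty acid genes, had 273, 236 and 198 CPM in the Hes1 cKO libraries, against 236, 241, 219 and 199.8 CPM in the control libraries. The Hes1 cKO libraries again enclosed the controls, with a log2 fold change of 0.07 (SE 0.12). Scap, the sterol sensor and escort, had a log2 fold change of 0.09 (SE 0.10), with 144 to 160.0 CPM in Hes1 cKO and 128 to 168 CPM in control.

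The INSIG genes differed in spread, with control coefficients of variation of 28.4% for Insig1 and 5.39% for Insig2. Insig1 (ENSMUSG00000045294, chromosome 5, 28071363 to 28078662, GRCm38), itself a target of SREBP and a retention factor for SCAP, had 68.9, 47.9 and 58.0 CPM in the Hes1 cKO libraries, against 60.8, 104, 71.5 and 58.6 CPM in the control libraries. Control 2 lay far above the next library, and the rest of the ranges overlapped. The log2 fold change was -0.34 (SE 0.20, 95% interval -0.80 to 0.12, edgeR adjusted p 0.937, exact two-sided permutation p 0.314). When 1 library was left out, it ran from -0.48 (without Hes1 cKO 1) to -0.13 (without control 2). Insig2, the second retention factor, stayed between 47.4 and 54.5 CPM in all libraries (log2 fold change -0.03, SE 0.08). Stard4, which carries cholesterol between membranes, had 91.2, 94.75 and 113 CPM in the Hes1 cKO libraries, against 95.1, 119, 104 and 111 CPM in the control libraries, with overlapping ranges and a log2 fold change of -0.11 (SE 0.11).

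Fatty acid synthesis begins with Acly and Acaca, which supply acetyl-CoA and malonyl-CoA, and continues with Fasn, Elovl6 and the desaturases. Fasn (ENSMUSG00000025153) was at 1117, 638 and 714.5 CPM in Hes1 cKO 1, 2 and 3 and at 758, 992, 879.6 and 727 CPM in control 1, 2, 3 and 4. The highest library was Hes1 cKO 1 and the lowest Hes1 cKO 2, so the spread within the Hes1 cKO group exceeded that of the controls. The means were 823 ± 258 (SD, n = 3) and 839 ± 121 CPM (SD, n = 4), a 0.981-fold level with a 95% interval of 0.726 to 1.33 (edgeR adjusted p 0.996). Acly and Acaca repeated this order at both ends. Acly was at 508 CPM in Hes1 cKO 1 and 467 CPM in control 2, its highest libraries, and at 356 CPM in Hes1 cKO 2, its lowest. Acaca, acetyl-CoA carboxylase, was at 135 and 127 CPM in those libraries and at 75.7 CPM in Hes1 cKO 2. The log2 fold changes were -0.003 (SE 0.13) for Acly and -0.10 (SE 0.18) for Acaca.

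Elovl6, the elongase acting on palmitate, and Scd1 had another order of libraries. Scd1 (ENSMUSG00000037071) had 456, 343 and 629 CPM in the Hes1 cKO libraries, against 297, 472, 503.5 and 365 CPM in the control libraries. Hes1 cKO 3 was highest and control 1 lowest, and the ranges overlapped, with means of 476 ± 144 (SD, n = 3) and 409 ± 95.6 CPM (SD, n = 4). The log2 fold change was 0.22 (SE 0.23, 95% interval -0.29 to 0.73, edgeR adjusted p 0.974), the largest of the fatty acid genes. When 1 library was left out, it ran from -0.03 (without Hes1 cKO 3) to 0.41 (without Hes1 cKO 2). Elovl6 was likewise highest in Hes1 cKO 3 (103 CPM) and lowest in control 1 (54.9 CPM), with a log2 fold change of -0.003 (SE 0.21). Scd2, which lies beside Scd1 on chromosome 19, was at 215 to 281.5 CPM in Hes1 cKO and 234 to 286 CPM in control, with a log2 fold change of -0.05 (SE 0.12).

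**Figure D4:**
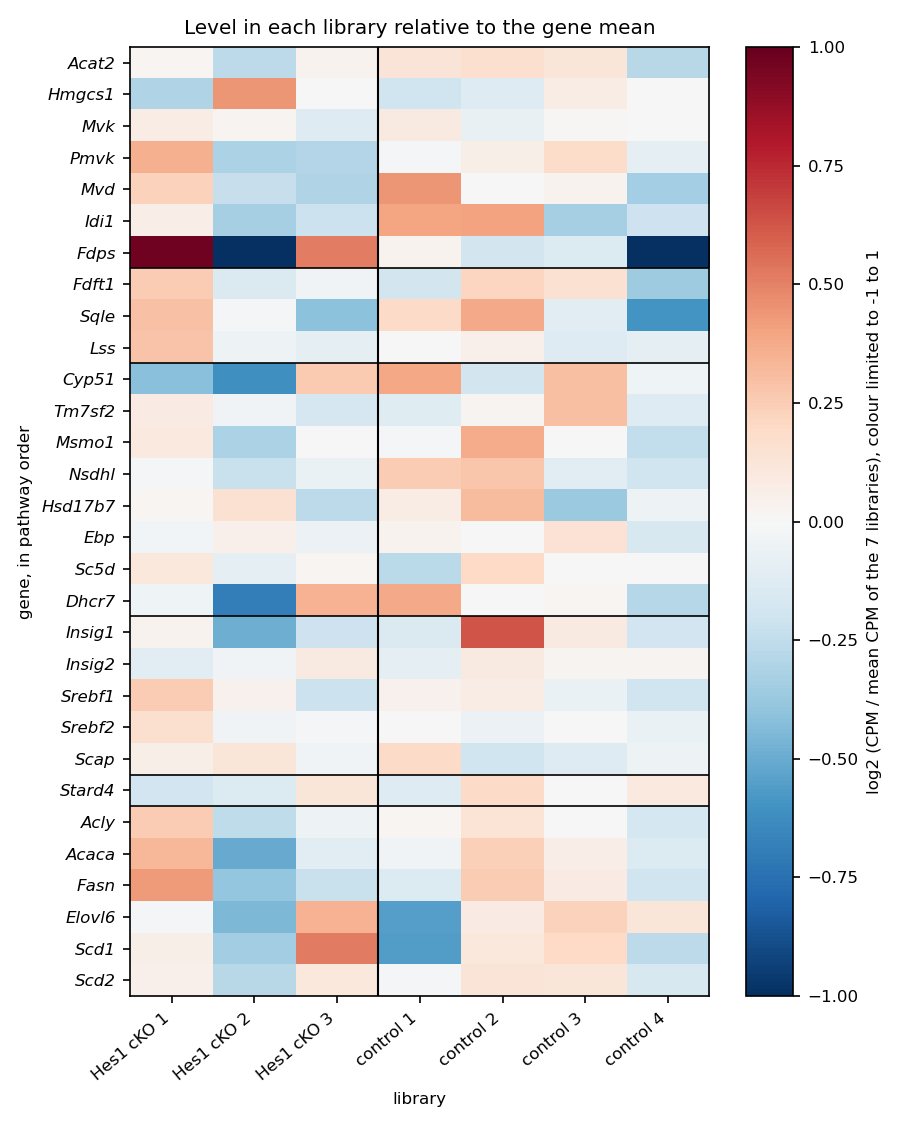
Level of each gene (rows, in pathway order, lines between roles) in each library (columns) as log2 of CPM over the mean CPM of the gene in the 7 libraries, blue below and red above. Hes1 cKO 2 and control 4 are mostly blue, Hes1 cKO 1 and control 2 mostly red, and the groups (left and right of the vertical line) show no common colour.

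The libraries of each group differed among themselves. Control 2 was the highest library for 11 of the 30 genes (14.8% of all tested genes were highest there) and Hes1 cKO 1 for 9 (13.2% of all). Hes1 cKO 2 was the lowest for 12 (15.5% of all) and control 4 for 6 (11.1% of all). Over the 30 genes, the median log2 ratio to the mean of the gene was 0.07 in Hes1 cKO 1 and 0.10 in control 2, but -0.23 in Hes1 cKO 2 and -0.16 in control 4, so each group held a high and a low library. For the 6 fatty acid genes these medians were 0.16, 0.13, -0.37 and -0.17. The coefficient of variation in control libraries had a median of 13.8% over the set and 13.0% over all tested genes.

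The spread was also set against 3 other measures of the libraries, and no gene of the set passed the adjusted test for any of them. Each measure was entered beside the group in the same edgeR fit over all genes, and its slope is the log2 difference from the lowest to the highest library of that measure. For Xist, 0 of the 30 genes passed the adjusted test (background 1.34%), and 6 had an unadjusted p under 0.05 (background 12%). Of those 6, Sqle (slope -0.61, SE 0.14, edgeR adjusted p 0.0733), Idi1 (-0.45), Hsd17b7 (-0.39), Mvd (-0.38) and Srebf1 (-0.27) had negative slopes, and Elovl6 had a positive slope (0.48, SE 0.16, edgeR adjusted p 0.266). In Sqle all 3 libraries with high Xist, at 57.2 to 80.2 CPM, lay under the other 4, at 85.7 to 112 CPM. The labels list kidneys of both sexes, but the column names do not give the sex of a library, and its part in these values was not tested.

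The adrenal and fat scores are the means of log2(CPM + 1) over the marker genes of each tissue. For the adrenal cortex score, which ran from 0.35 in Hes1 cKO 2 to 5.95 in Hes1 cKO 3, 0 of the 30 genes passed the adjusted test (background 0.256%) and 2 had an unadjusted p under 0.05 (background 3.15%). These were Dhcr7 (slope 0.72, SE 0.18, edgeR adjusted p 0.577) and Nsdhl (0.34, SE 0.13), both with positive slopes. For the adipocyte score, which spanned only 4.43 in control 4 to 4.93 in Hes1 cKO 1, 0 of 30 passed (background 0%), and 7 had an unadjusted p under 0.05 (background 4.83%), all of them with positive slopes: Fdps, Dhcr7, Mvd, Acaca, Fdft1, Acat2 and Acly. Mvd had a slope of 0.83 (SE 0.22, edgeR adjusted p 0.889). All 7 adipocyte markers were detected in all libraries. The part of adrenal or fat tissue in these values was not tested beyond these slopes. With any of the 3 measures in the fit, 0 of the 30 genes were called between the groups.

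**Figure D5:**
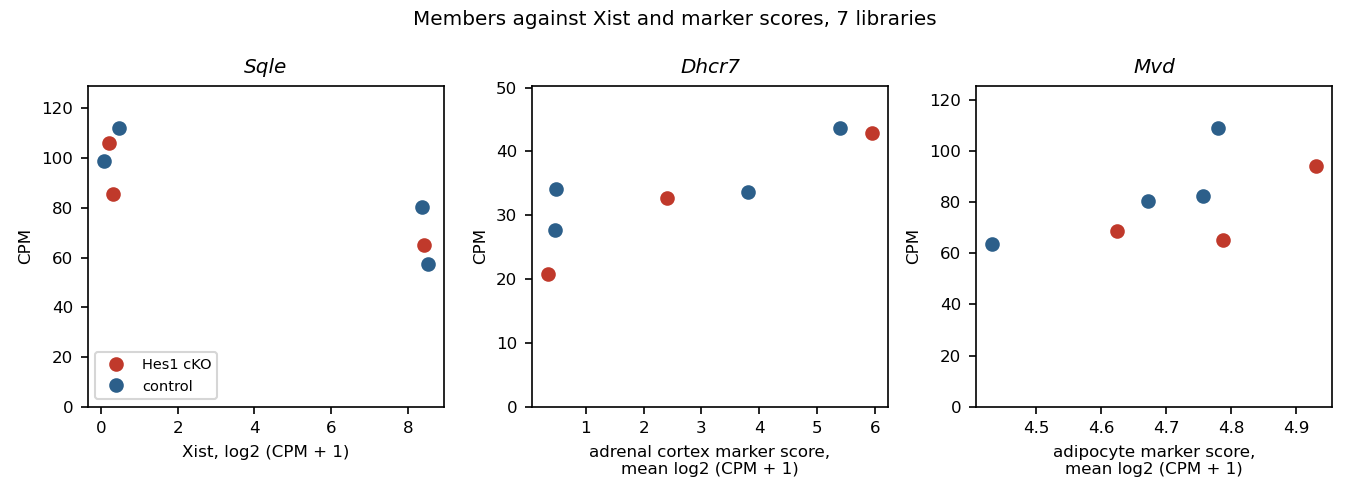
CPM of Sqle against Xist, of Dhcr7 against the adrenal cortex marker score and of Mvd against the adipocyte marker score, 1 point per library, Hes1 cKO in red and control in blue; vertical axes start at 0. Sqle is at most 80.2 CPM in the 3 libraries with high Xist, and Dhcr7 is highest in the 2 libraries with the highest adrenal score.

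Neighbouring pathways were read from the same edgeR fit, and their medians stand beside -0.0064 for the whole table. Of all tested genes, 0.339% were called and 5.95% had an unadjusted p under 0.05. Of 13 further genes of sterol synthesis, uptake and SREBP processing, 0 were called and 0 had an unadjusted p under 0.05, with 4 log2 fold changes above 0 and 9 below (median -0.04, range -0.51 to 0.18). Of 15 genes of fatty acid oxidation and ketone synthesis, the route that consumes fatty acids, 0 were called and 0 had an unadjusted p under 0.05 (4 above 0, 11 below, median -0.05). Their log2 fold changes ran from -0.24 for Acadm, the medium-chain dehydrogenase, to 0.08 for Hadha, a subunit of the trifunctional protein. Of 16 tested genes of other lipogenic and glyceride synthesis steps, 0 were called and 1, Acss2, had an unadjusted p under 0.05 (6 above 0, 10 below, median -0.03). Acss2, which makes acetyl-CoA from acetate, had 202, 179 and 160.3 CPM in the Hes1 cKO libraries, against 253, 228.5, 191 and 215 CPM in the control libraries (log2 fold change -0.30, SE 0.12, edgeR adjusted p 0.751). The extremes of that list were Scd4 (-0.65, SE 0.74, at under 1 CPM in every library) and the carboxylase gene Acacb (0.19, SE 0.14).

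Among 8 genes of the LXR receptors, which sense excess sterol, and of sterol efflux, 0 were called (background 0.339%). An unadjusted p under 0.05 was found for 2 of the 8 (background 5.95%). Of the log2 fold changes, 6 were above 0 and 2 below (median 0.11). Soat1, which stores cholesterol as esters, was at 59.2, 62.9 and 58.6 CPM in Hes1 cKO 1, 2 and 3 and at 49.5, 44.5, 40.5 and 34.9 CPM in control 1, 2, 3 and 4. The groups did not overlap (background 7.01%). In the controls Soat1 fell in the order of the adrenal cortex score, from 5.40 in control 1 to 0.476 in control 4. In the Hes1 cKO libraries the order was the reverse, with Soat1 highest at the lowest score and lowest at the highest. The slope of Soat1 on that score was 0.19 (SE 0.14), and the part of adrenal tissue was not tested further. The means were 60.2 ± 2.31 (SD, n = 3) and 42.3 ± 6.19 CPM (SD, n = 4). The difference, 0.51 on the log2 scale (SE 0.12), did not pass over all genes (edgeR adjusted p 0.234, exact two-sided permutation p 0.0571). Abca1, which exports cholesterol to apolipoproteins, had 70.2, 103 and 90.2 CPM in the Hes1 cKO libraries, against 52.2, 81.4, 64.1 and 67.2 CPM in the control libraries. The ranges overlapped, and the log2 difference was 0.41 (SE 0.16, edgeR adjusted p 0.752). The lowest log2 fold change in this list was -0.04 (SE 0.09), that of the receptor gene Nr1h3.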

How the data were processed

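The authors deposited whole-number read counts per gene without normalization, from 150 bp read pairs of whole-kidney RNA. The submitters' processing notes name FastQC, STAR, DESeq2 and the builds mm10 and GRCm38. The sources used here do not name the annotation, the counting program or its strand setting. Column names placed 3 libraries in Hes1 cKO and 4 in control; 9 columns of per-sample values in a table whose names show no genotype were not used. Titles name 7 Hes1 cKO and 9 control kidneys, and the series text gives the reverse. Genes were filtered with filterByExpr (minimum count 10), scaled by TMM and tested with edgeR 4.0.16 (R 4.3.3) quasi-likelihood, adjusted over all tested genes (threshold 0.05). Limma 3.58.1 and DESeq2 1.42.0 were alternatives. Exact permutation tests used log2(CPM + 1) over 35 divisions of the libraries (smallest p 0.0286). The fit was checked on simulated data. Exon lengths came from GENCODE M21 and count every base in any annotated exon of a gene. Levels per kb compared between genes depend on that choice. Members and lists were chosen with earlier results of these data known. All members are named. Values per library follow unadjusted p under 0.05, the largest change in a role, and 7 fixed genes. Further values per library, such as those of Idi1, Dhcr7 and Acat3, were added outside this rule. Single genes of the list of further sterol genes are not reported here.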

Additional observations from a re-analysis of the deposited data

Results flagged for a closer look

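Acat2, the cytosolic thiolase gene, was low in 1 control library. Control 4 had 89.3 CPM, against 118, 120.3 and 117 CPM for the other controls. The gap to the nearest of them took 0.908 of the whole range, more than Dixon's 95% critical value for 4 samples. Of 31 genes tested in this way (the 30 genes and Hes1), 1 was found, and chance alone puts a library this far out in about 1 in 20 groups. Hes1 cKO 2 was about as low as control 4, with 89.85 CPM.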

How the results depend on the processing

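No gene of the set was called in any of 17 alternatives, and 0 to 4 of 30 had an unadjusted p under 0.05. Hes1 was called in all 17. The median log2 fold change of the set was -0.11 with the adipocyte covariate and -0.08 to 0.02 when 1 library was left out, and 0.03 without the 3 libraries with most adrenal RNA. Cyp51, Insig1, Scap, Acat2 and Stard4 kept their sign in every alternative, and 25 genes changed sign in at least 1. Of 15615 genes, 53 were called. DESeq2 called 130 and edgeR without a low-count filter 102 (in both, 53 shared). The adipocyte covariate gave 29, and leaving out 1 library 25 (without Hes1 cKO 2) to 47 (without control 2), with 27 without Hes1 cKO 1. After seeing the data, 2 subsets of 4 libraries were added. Without the 3 libraries with most adrenal RNA there were 220 calls (46 shared); here Xist was low in both Hes1 cKO and high in both control libraries, so that group and Xist cannot be told apart. Sqle turned to 0.48 there (edgeR adjusted p 0.275), and Cyp51 reached -0.65 (0.0809, the smallest adjusted p of any gene of the set in any alternative). With the 4 libraries of low Xist there were 23 calls (19 shared), and Cyp51 was at -0.65 (edgeR adjusted p 0.568). There the adrenal cortex score was 5.40 and 3.81 in the control libraries, against 2.41 and 0.35 in the Hes1 cKO libraries. Group and adrenal score therefore cannot be told apart in that subset. Leaving out Hes1 cKO 2 took Cyp51 to -0.17. The cause of these differences was not tested. No paired analysis was possible because the column names do not give the litter of a library. Few reads limit what Fdps can show, with at most 29 in a library.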
